A study of Caenorhabditis elegans with 2 samples.

Results

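The regions described here are the 1418 rows on chromosome V among the 7699 regions of a peak list made from chromatin immunoprecipitation and sequencing (ChIP-seq) of NHR-237, a nuclear hormone receptor of Caenorhabditis elegans. They were taken by position alone and divided at 25% and 75% of the chromosome's 20924180 bp, that is at positions 5231045 and 15693135 of the ce11 build. The arms are the outer parts on both sides and held 475 regions, 264 in the left arm and 211 in the right arm. The centre, which has the same length as the arms together, held 943. Each region was placed by its summit, the base at which the authors' caller set the peak.

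The assay used whole L1 larvae of mixed sex and unknown age in 1 group of 2 biological replicates. Both replicates came from strain OP228, which carries the integrated transgene wgIs228 for nhr-237 fused to eGFP and the mutant allele unc-119(ed3) on chromosome III. By the labels the target was the eGFP fusion, but their antibody field reads nhr-237, so they do not settle which of them the antibody bound. The labels do not give the promoter of the transgene. Whole animals hold many cell types, so a region cannot be placed in one of them. Neither input DNA nor an untagged strain was analysed, and the number of reads is unknown. Each region has a signal value, the score of the authors' peak caller on a scale that is not stated, which is used here only within one list. The 95% intervals below are exact binomial (Clopper-Pearson) for shares and Newcombe for differences between shares. They cover counting error only, since neither regions nor genes are replicates of the experiment, and no p-value was computed from them.

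Nuclear hormone receptors are transcription factors with a zinc-finger DNA-binding domain and, in most members, a ligand-binding domain that can hold small lipid-like molecules. The family is much enlarged in nematodes. The autosomes of C. elegans are divided into a central cluster, where conserved and highly expressed genes are common and recombination is rare, and arms with more recombination, more repeats and many fast-changing gene families. Chromosome V is the longest chromosome and is known for its chemoreceptor genes, whose products sense odours and tastes. By gene name it held 890 of 1309 chemoreceptor genes (68.0%) and 167 of 269 nuclear hormone receptor genes (62.1%), against 4994 of 19973 protein-coding genes in all (25.004%).

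The bases around the summits of the 4 strongest regions of the arms and the 4 strongest of the centre are printed here because the signals and genes below refer to them. Each is 101 bases of the ce11 plus strand, read 5′ to 3′ from the RefSeq genome (WBcel235), with the summit in the middle. Capitals mark the hexamer GAGAGA or its complement TCTCTC.

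linc-128 region, left arm, chrV:1151468-1151568: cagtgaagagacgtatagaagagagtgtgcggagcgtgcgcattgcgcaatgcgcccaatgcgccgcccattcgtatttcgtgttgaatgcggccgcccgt
hif-1 region, right arm, chrV:20778394-20778494: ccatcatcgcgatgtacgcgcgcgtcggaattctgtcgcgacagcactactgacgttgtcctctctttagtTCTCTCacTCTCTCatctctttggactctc
Y59A8B.24 region, right arm, chrV:17951383-17951483: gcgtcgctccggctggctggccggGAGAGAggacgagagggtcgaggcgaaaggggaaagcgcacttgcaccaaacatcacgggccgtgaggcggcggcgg
efl-1 region, right arm, chrV:16965791-16965891: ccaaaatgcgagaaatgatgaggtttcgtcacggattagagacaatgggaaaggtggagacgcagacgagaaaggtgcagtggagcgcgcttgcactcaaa
his-37 region, centre, chrV:9546947-9547047: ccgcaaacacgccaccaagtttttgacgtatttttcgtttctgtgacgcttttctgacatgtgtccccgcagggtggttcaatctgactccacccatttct
egl-9 region, centre, chrV:10466705-10466805: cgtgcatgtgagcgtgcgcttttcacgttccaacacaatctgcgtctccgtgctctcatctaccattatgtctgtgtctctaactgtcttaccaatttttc
hsp-90 region, centre, chrV:14685773-14685873: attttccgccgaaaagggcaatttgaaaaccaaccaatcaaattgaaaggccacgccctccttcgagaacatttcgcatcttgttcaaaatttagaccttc
sec-61.G region, centre, chrV:10897317-10897417: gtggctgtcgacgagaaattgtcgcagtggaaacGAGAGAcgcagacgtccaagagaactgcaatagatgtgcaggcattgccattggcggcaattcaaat

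The hexamer occurred in 2 of the 4 windows from the arms, at hif-1 and Y59A8B.24, and in 1 of the 4 from the centre, at sec-61.G. The other 4 motifs that were searched, namely AGGTCA and TGATAA as well as CACGTG and also TGACTCA, did not occur in these 8 windows. The window at Y59A8B.24 had the highest GC content of the 24 strongest regions, at 70.3%.

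Regions were sparser in the arms of the chromosome than in its centre. The arms held 475 of the 1418 regions (33.5%, 95% CI 31.04 to 36.02) in the same length of DNA as the centre. This came to 45.4 regions per Mb in the arms and 90.1 per Mb in the centre, a ratio of 0.504 (95% CI 0.450 to 0.563). Each replicate gave a like split when its 7699 strongest regions were taken. In replicate 1 the arms held 472 regions and the centre 917, so that the arms had 34.0% (31.5 to 36.5). In replicate 2 the arms held 498 and the centre 890, which is 35.9% in the arms (33.4 to 38.5). The whole replicate lists are longer and hold many weak regions, and there the arms had 1668 of 4270 regions (39.1%) in replicate 1 and 2062 of 4836 (42.6%) in replicate 2.

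**Figure D1:**
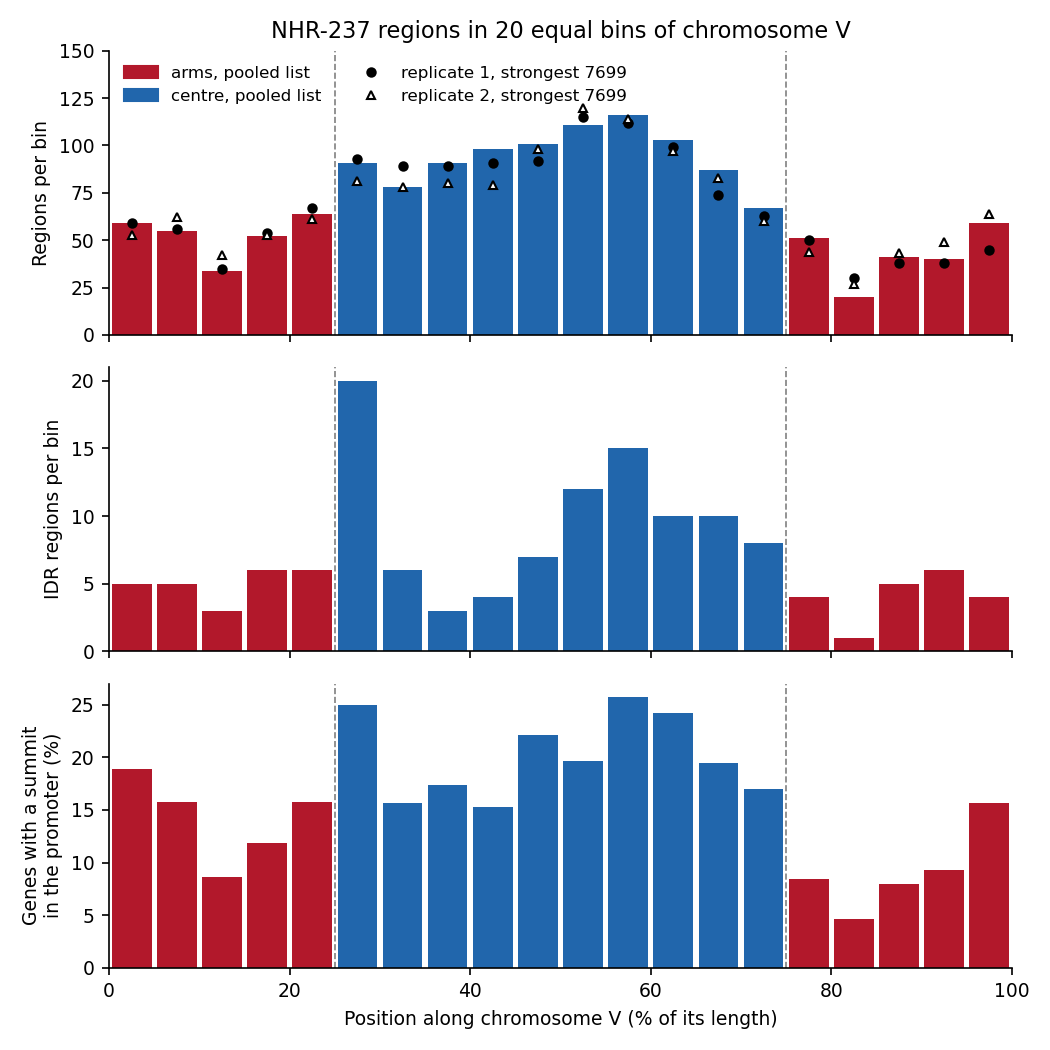
Counts in 20 equal bins of chromosome V, each 5% of its length, with dashed lines at the boundaries between the arms (red) and the centre (blue). Top, regions of the pooled list (bars) and of each replicate's 7699 strongest (points), middle, regions of the IDR list, bottom, share of protein-coding genes with a pooled summit in the promoter. The 10 bins of the arms hold 20 to 64 pooled regions and the 10 bins of the centre 67 to 116.

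In bins of 5% of the chromosome's length, those of the arms held 20 to 64 pooled regions (median 51.5) and those of the centre 67 to 116 (median 94.5), so the bins did not overlap between arms and centre. In the replicates they did overlap by a little. The bins of the arms reached 67 in replicate 1 and 64 in replicate 2, and the lowest bins of the centre held 63 and 60. In bins of 1 Mb the fewest regions lay between 17 and 18 Mb, in the right arm, with 17 in the pooled list, 28 in replicate 1 and 21 in replicate 2. In the pooled list and in replicate 2 the most lay between 11 and 12 Mb, in the centre, with 114 and 124. In replicate 1 that bin held 102 and the one between 6 and 7 Mb, also in the centre, held the most, 106. The counts rose again toward the chromosome's ends, where the outermost 5% held 59 regions on the left and 59 on the right. Neighbouring summits were a median of 13575 bp apart in the arms and 6659.5 bp in the centre. The longest stretch between summits was 259374 bp, in the left arm, against 95186 bp in the centre.

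The boundaries are positions on the chromosome, so signal played no part in which regions fell inside them. At the left boundary the last region inside the arm had a signal of 36.0 and lay 85 bp from the start of ttc-37, while the next one, in the centre, had 31.5 and lay 3488 bp from srt-68. At the right boundary the arm began with a region of signal 36.5, 77 bp from the start of nhr-198, and the centre ended with one of signal 28.3, 251 bp from nhr-268.

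In the pooled list the arms held fewer regions than the centre on every chromosome, and the ratio was lowest on V. It was 0.504 on V, against 0.528 on I, 0.567 on II, 0.592 on III, 0.779 on IV and 0.893 on X. The other chromosomes together had 64.1 regions per Mb in the arms and 94.2 in the centre, and 40.5% of their regions (39.3 to 41.7) were in the arms. That value is raised by IV (43.8%) and X (47.2%). The intervals of I (34.6%, 31.8 to 37.4), II (36.2%, 33.3 to 39.2) and III (37.2%, 34.3 to 40.2) overlap that of V given above. The centre of V, at 90.1 regions per Mb, lay within the range of the other centres, 89.2 to 101.8. The arms of V, at 45.4, lay below the arms of each other chromosome, 50.7 to 84.8, when both arms were counted together. By single arm the left arm of II was the lowest, at 34.6 regions per Mb, against 40.3 in the right arm and 50.5 in the left arm of V. Genes did not divide in the same way. The arms of V had 2370 protein-coding genes (226.5 per Mb) and its centre 2624 (250.8 per Mb), so that there were 20.04 regions per 100 genes in the arms and 35.9 in the centre. On the other chromosomes together the same figures were 38.8 in the arms and 44.4 in the centre, but on IV they were 45.6 and 40.02 and on X 58.4 and 58.2.

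**Figure D2:**
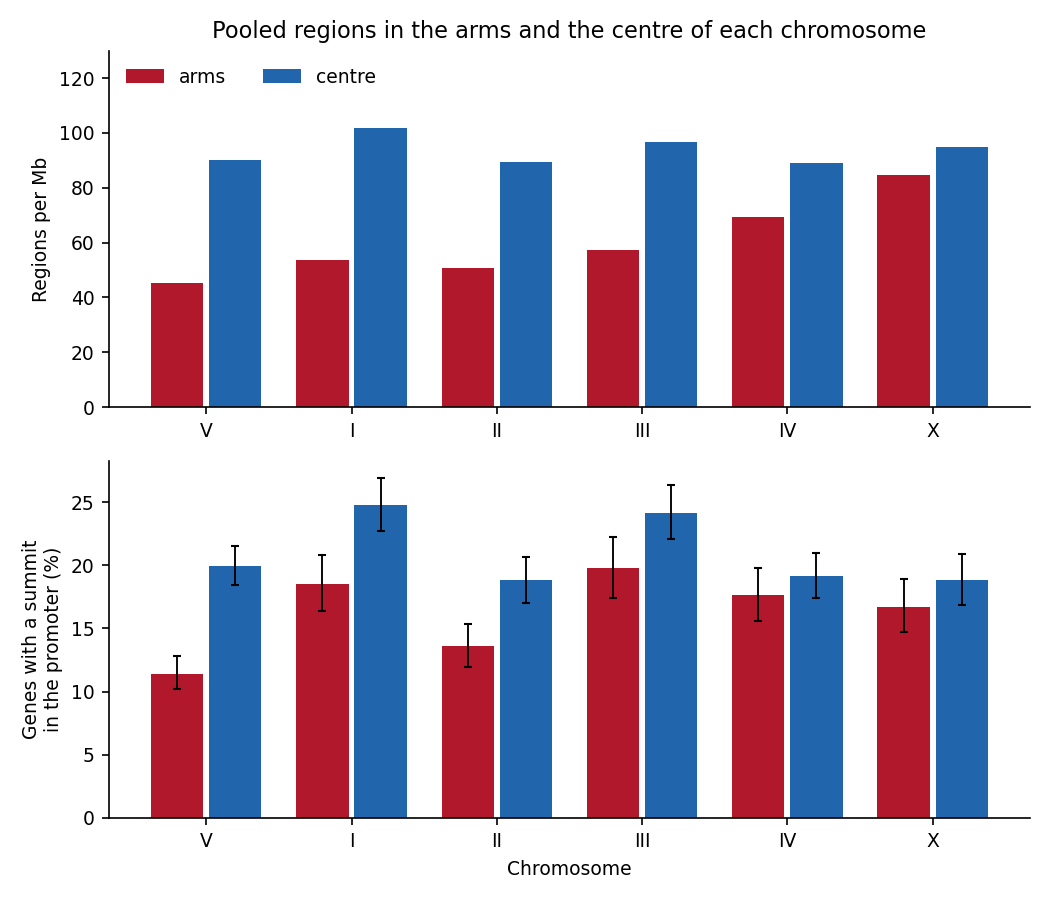
Regions of the pooled list per Mb (top) and share of protein-coding genes with a pooled summit in the promoter (bottom, bars are 95% exact intervals for counting error) in the arms (red) and the centre (blue) of each chromosome. Chromosome V, at the left, has 45.4 regions per Mb in the arms and 90.1 in the centre, and 11.4% of genes in the arms and 19.9% in the centre.

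The share of genes with a region in their promoter takes account of gene number. Here a promoter starts 1000 bp before an annotated start of a protein-coding gene and ends 200 bp after it. Over all chromosomes 18.4% of protein-coding genes had a pooled summit there. On V the share was 271 of 2370 genes in the arms (11.4%, 95% CI 10.2 to 12.8) and 523 of 2624 in the centre (19.9%, 18.4 to 21.5), a difference of -8.50 percentage points (95% CI -10.5 to -6.49). For each replicate, here and in all counts of genes below, only its 7699 strongest regions were used. Replicate 1 alone gave 10.9% in the arms and 18.3% in the centre, and replicate 2 gave 10.7% and 18.9%. The difference was therefore of like size in both, at -7.33 and -8.15 percentage points. The left arm had 167 of 1208 genes (13.8%, 11.9 to 15.9) and the right arm 104 of 1162 (8.95%, 7.37 to 10.7). Both replicates ranked them in that order, with 12.8% in the left arm and 8.95% in the right arm in replicate 1, and 12.5% and 8.86% in replicate 2. The left arm of II had 7.79% (6.18 to 9.65). On the other chromosomes together 17.0% of genes in the arms (16.1 to 17.9) and 21.1% in the centre (20.2 to 21.9) had a summit.

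The IDR list holds the regions that passed the authors' irreproducible discovery rate threshold, a measure of how well ranks repeat between replicates. Over all chromosomes 4.66% of protein-coding genes had an IDR summit in the promoter. On V these were 40 genes in the arms (1.69%, 1.21 to 2.29) and 104 in the centre (3.96%, 3.25 to 4.78). The other chromosomes had 5.40% in the arms (4.86 to 5.97) and 5.14% in the centre (4.68 to 5.64) when pooled. By chromosome the arms were lower than the centre on I (6.20% and 6.41%) and II (3.86% and 4.63%), and higher on III (8.45% and 7.49%), IV (5.33% and 4.31%) and X (4.12% and 2.90%). For the centre of V the interval overlapped that of the combined other centres in both lists. By chromosome it overlapped those of the centres of II, IV and X in both lists, but lay below those of I and III. In the pooled list these were 22.7 to 26.9 on I and 22.1 to 26.4 on III. In the IDR list they were 5.28 to 7.69 on I and 6.23 to 8.90 on III.

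Once called, regions of the arms and of the centre had close values in several measures. Over all chromosomes 13.3% of pooled regions overlapped an IDR region. On V this held for 48 of 475 in the arms (10.1%, 7.55 to 13.2) and 97 of 943 in the centre (10.3%, 8.42 to 12.4), a difference of -0.18 percentage points (-3.37 to 3.34). The IDR list itself has 140 regions on V, 45 in the arms and 95 in the centre. The counts by overlap are higher because neighbouring pooled regions can overlap the same IDR region. Counted by overlap, the arms held fewer than the centre on I, II, III and IV as well. On X they held more, with 105 in the arms and 74 in the centre. V held 14.4% of the IDR list and 18.4% of the pooled list, against 20.9% of the bases of the nuclear genome. A region overlapped one in both replicate lists in 340 of 475 cases in the arms (71.6%) and 679 of 943 in the centre (72.0%). The median signal was 27.9 in the arms and 28.4 in the centre, close to the lowest value of the list on V, 23.5. Among regions found in both replicates, the rank correlation of the replicates' signals was 0.33 over 340 regions of the arms and 0.36 over 679 of the centre, where all points share the same 2 libraries and the choice of regions by pooled signal.

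The 2 arms were less like each other in where the summits fell. The left arm had 141 of 264 summits in a promoter (53.4%, 47.2 to 59.5) and the right arm 86 of 211 (40.8%, 34.1 to 47.7). Introns outside promoters held 14.4% of left-arm summits and 22.3% of right-arm summits, and intergenic DNA 22.3% and 32.7%. The median distance to the nearest start of a protein-coding gene was 507 bp in the left arm and 919 bp in the right arm. As a whole the arms had 227 of 475 summits in promoters (47.8%, 43.2 to 52.4), and the centre had 452 of 943 (47.9%, 44.7 to 51.2). Of summits in promoters, 51 in the arms (22.5%) and 105 in the centre (23.2%) lay in the promoters of 2 or more genes. Coding exons held 22 summits of the arms (4.63%) and 63 of the centre (6.68%). By arm these were 18 of 264 on the left (6.82%, 4.09 to 10.6) and 4 of 211 on the right (1.90%, 0.52 to 4.78).

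Among IDR regions of V none of 45 in the arms and none of 95 in the centre had its summit in a coding exon outside promoters, with exact 95% upper bounds of 7.87% and 3.81%. There 29 of 45 summits in the arms (64.4%, 48.8 to 78.1) and 73 of 95 in the centre (76.8%, 67.1 to 84.9) were in promoters. By arm, 19 of 25 were in promoters on the left (76.0%) and 10 of 20 on the right (95% CI 27.2 to 72.8).

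All 24 of the named regions, 12 in the arms and 12 in the centre, overlapped the IDR list, were 364 bp wide and had a region in both replicates. Replicate 1 gave the higher signal at each of them, but each replicate list has its own scale. In the arms 6 of the 12 summits were in a promoter, 2 more lay within 2 kb upstream of a start and 4 lay farther away. In the centre these numbers were 9, 1 and 2. Of the arms' 12, 8 were in the right arm and 4 in the left arm. Above a signal of 100 were 11 of the 475 regions of the arms and 19 of the 943 regions of the centre.

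The strongest region of the arms, chrV:1151336-1151699 in the left arm, had a signal of 188.0 in the pooled list and ranked 4 among all V regions. Its signal was 111.8 in replicate 1 and 78.0 in replicate 2, and it ranked 5 on V in both. It is intergenic, within 250 bp of the long noncoding RNA gene linc-128, and lay 4753 bp upstream of cmd-1, the gene for calmodulin, the calcium-binding regulator of many enzymes. The next, chrV:20778262-20778625 near the right end of the chromosome, had a signal of 185.1 (117.0 and 67.3 in replicates 1 and 2). Its summit lay 1963 bp upstream of hif-1, the hypoxia-inducible factor that turns on genes when oxygen is low. The region of the same rank in the centre, chrV:10466573-10466936, had a signal of 215.9 (123.8 and 93.1). It lay 1762 bp upstream of egl-9, which encodes the prolyl hydroxylase that marks HIF-1 for removal when oxygen is present. Both summits are outside protein-coding genes and outside the 1000 bp promoter window, so their assignment to these genes rests on distance alone. The summit near egl-9 was also within 250 bp of the noncoding RNA genes F22E12.10 and F22E12.9, closer than to egl-9.

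In the right arm the region chrV:16965659-16966022 had a signal of 133.8 (67.3 and 64.2 in replicates 1 and 2). Its summit lay 166 bp upstream of efl-1, an E2F-like transcription factor of the cell cycle, and 973 bp upstream of fbxa-90, an F-box gene, whose family supplies substrate adaptors for ubiquitin ligases. The region chrV:17951251-17951614, 516 bp upstream of Y59A8B.24, an uncharacterized protein gene, had 143.6 (95.03 and 51.0). The region chrV:18967668-18968031, 21 bp upstream of Y39B6A.43, which encodes a protein with a DUF4124 domain, had 132.0 (67.5 and 65.3). Of the remaining right-arm regions, one with a signal of 128.2 (chrV:19529207-19529570) lay in an intron of Y43F8B.2, a gene for a protein with a GSKIP domain, 2598 bp downstream of its start. One with 113.7 (chrV:18723662-18724025) lay within 250 bp of a pseudogene and 3857 bp upstream of Y17D7C.2, an ADP-ribosyl cyclase gene by its RefSeq product name. One with 112.3 (chrV:17857919-17858282) lay 2112 bp upstream of tcc-1, named by RefSeq as ribosome-binding protein 1. The weakest of the 12, with 97.2 (chrV:15880678-15881041), lay 1252 bp upstream of nhr-84, which belongs to the same receptor family as nhr-237.

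In the left arm the region chrV:773262-773625, 74 bp upstream of sti-1, had a signal of 120.2 (72.1 and 45.5 in replicates 1 and 2). STI-1 is the co-chaperone that binds the chaperones HSP70 and HSP90. The region chrV:1871822-1872185, 242 bp upstream of cct-7, a subunit of the cytosolic chaperonin that folds actin and tubulin, had 100.3 (51.5 and 48.0). The same summit lay 197 bp upstream of T10B5.4, an N-acetyltransferase gene, and within 250 bp of the noncoding RNA gene T10B5.13. The region chrV:5049356-5049719, with a signal of 102.6 (65.1 and 36.3), lay 69 bp upstream of pqn-51, a gene for a prion-like glutamine- and asparagine-rich protein, and 98 bp upstream of K11D12.14. This last region stood apart in its ranks, with 20 on V in replicate 1 and 60 in replicate 2.

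**Figure D3:**
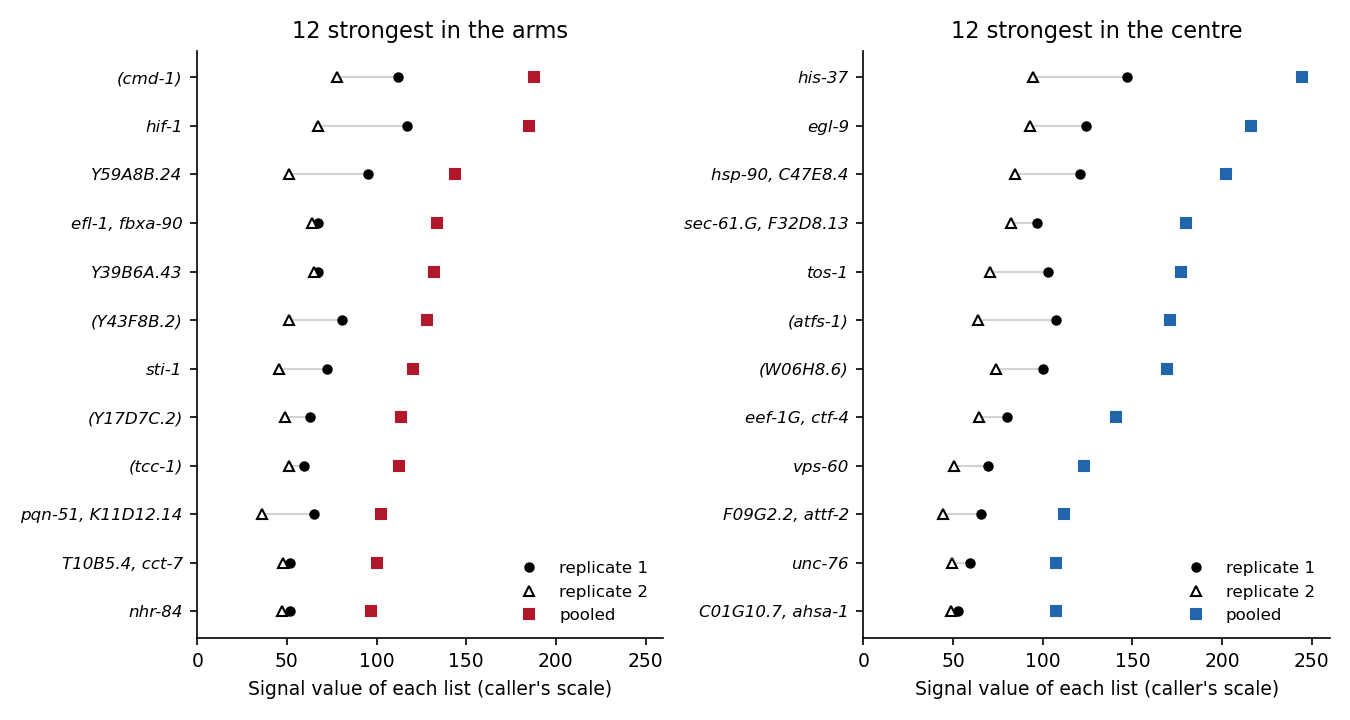
Signal of the 12 strongest regions of the arms (left) and of the centre (right) in replicate 1 (circles), replicate 2 (triangles) and the pooled list (squares), each on its own list's scale. Genes are those whose promoter holds the summit or whose start is within 2 kb, and the nearest gene stands in brackets where there is none. Pooled signals run from 97.2 to 188.0 in the arms and from 107.1 to 244.3 in the centre, and replicate 1 is above replicate 2 at each region.

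In the centre the strongest region, chrV:9546815-9547178, had a signal of 244.3 and ranked 1 on V in the pooled list and in both replicates (147.0 and 94.5). Its summit lay 108 bp upstream of his-37, a histone H4 gene. Histone genes are near-identical copies of each other, and no source used here says how the authors placed reads that match several of them. The third, chrV:14685641-14686004, with 202.2 (120.8 and 84.6), lay 337 bp upstream of an annotated start of hsp-90, the gene for the HSP90 chaperone. Its summit is inside the annotated hsp-90 gene and lay 338 bp upstream of C47E8.4, a homolog of FAM50. A weaker one, chrV:15085436-15085799, with 107.1 (52.7 and 49.0), lay 233 bp upstream of ahsa-1, which encodes an activator of the HSP90 ATPase, and 129 bp upstream of C01G10.7, a citramalyl-CoA lyase gene. With sti-1 in the left arm, HSP90 and 2 of its cochaperones were thus among the 24, a grouping made after the values were seen and not tested.

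The region chrV:10897185-10897548, 224 bp upstream of sec-61.G, a subunit of the channel that carries new proteins into the endoplasmic reticulum, had 179.8 (96.8 and 82.1). It also lay 824 bp upstream of F32D8.13, a phosphomevalonate kinase gene of the mevalonate pathway. The region chrV:10965494-10965857, 43 bp upstream of eef-1G, a translation elongation factor subunit, and 137 bp upstream of ctf-4, a homolog of a DNA replication factor, had 140.6 (79.8 and 64.4). The region chrV:8606323-8606686, 377 bp upstream of vps-60, a component of the membrane-sorting ESCRT machinery, had 122.9. The region chrV:9344127-9344490, 106 bp upstream of tos-1, named as a target of splicing, had 176.9. The region chrV:15071263-15071626, 315 bp upstream of unc-76, which is needed for axon outgrowth, had 107.5. The region chrV:7196450-7196813, with 111.6, lay 284 bp upstream of F09G2.2, 495 bp upstream of attf-2, an AT-hook factor gene, and within 250 bp of a small nucleolar RNA gene.

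Of the centre's 12, 2 were far from any start. One, chrV:14200061-14200424, with 170.8 (107.4 and 64.0), was intergenic, and the nearest start was that of atfs-1, the regulator of the mitochondrial unfolded protein response, 3898 bp away on its downstream side. The other, chrV:6224474-6224837, with 169.5 (100.2 and 74.0), lay in an intron of W06H8.6, a gene for a protein with a basic helix-loop-helix domain, 2354 bp downstream of its start. Its summit was within 250 bp of the noncoding RNA gene W06H8.16.

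The gene for the factor itself, nhr-237, lies in the left arm at chrV:1625189-1626820 on the minus strand. No region of the pooled list or of either replicate list lay within 2 kb of it. The nearest pooled region was 17827 bp from its start, with a signal of 39.9 and a rank of 260 on V.

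Gene families that fill the arms differed in how many members had a region. Chemoreceptors are the most numerous, and 28 of 575 in the arms (4.87%, 3.26 to 6.96) and 38 of 315 in the centre (12.1%, 8.68 to 16.2) had a pooled summit in the promoter, against 11.4% of all genes of the arms and 19.9% of all genes of the centre. The replicates gave 30 and 29 in the arms for replicates 1 and 2, and 26 and 52 in the centre. The counts in the arms were thus close between replicates and those in the centre were not. The highest signal was at srh-16, at 66.99 and 31 bp upstream of its start, in the centre. With srx-125 (56.7) it was 1 of the 2 chemoreceptor genes of V with an IDR summit, and no chemoreceptor of the arms had one.

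Nuclear hormone receptor genes had a higher share than all genes of the same domain, though in the centre the intervals overlapped. A summit lay in the promoter of 27 of 111 in the arms (24.3%, 16.7 to 33.4) and 17 of 56 in the centre (30.4%, 18.8 to 44.1). The left arm had 21 of 74 (28.4%) and the right arm 6 of 37 (16.2%). The replicates gave 32 and 26 in the arms and 20 and 14 in the centre. An IDR summit lay in the promoter of 3 of 111 in the arms (2.70%, 0.56 to 7.70), against 1.69% of all genes there. In the centre it was 3 of 56 (5.36%, 1.12 to 14.9), against 3.96% of all genes. Both intervals include the share of all genes. Those of the arms were nhr-256 (74.2), nhr-50 (58.9) and nhr-57 (54.6), and those of the centre nhr-142 (89.1), nhr-47 (62.8) and nhr-42 (58.0). All 6 are named because they are the whole of a short list. The regions of nhr-142 and nhr-47 are shared with another promoter. The summit at nhr-142 lay 502 bp upstream of its start and closer to F44E7.9, 175 bp upstream of that gene's start, and the summit at nhr-47 was also in the promoter of dnj-19, a gene for a DNAJ co-chaperone. The summits at the other 4 lay in no other promoter of a protein-coding gene. On the other chromosomes 32 of 102 receptor genes (31.4%) had a pooled summit and 8 (7.84%) an IDR summit.

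Of all genes of V, 11.4% in the arms and 19.9% in the centre had a pooled summit in the promoter. For IDR summits the shares of all genes were 1.69% and 3.96%. C-type lectins, sugar-binding proteins with a part in defence against microbes, had 3 of 58 in the arms (5.17%) and 4 of 28 in the centre (14.3%), and none in the IDR list. Each replicate alone had 2 in the centre, and the arms had 4 in replicate 1 and 3 in replicate 2. Their highest signal was at clec-57, at 35.9, in the centre, where the whole list of replicate 2 had no overlapping region. F-box genes had 6 of 68 in the arms (8.82%) and 2 of 19 in the centre (10.5%), where replicate 1 had 4 and replicate 2 had 2. Cytochromes P450, which oxidise foreign and lipid compounds, had 7 of 30 in the arms (23.3%) and 2 of 11 in the centre (18.2%). By arm, 7 of 25 genes on the left and 0 of 5 on the right had one. The centre count was 0 in replicate 1 and 4 in replicate 2. The highest was cyp-33C9 in the left arm, with 49.96 and 21 bp upstream of the start. UDP-glucuronosyltransferases, which attach sugar to such compounds, had 4 of 17 in the arms (23.5%) and 2 of 25 in the centre (8%). They were led by ugt-61 (38.3) in the left arm, where the whole list of replicate 2 had no overlapping region. The arms had 5 in replicate 1 and 3 in replicate 2, and the centre 5 in replicate 1 and 1 in replicate 2. Glutathione S-transferases had 1 of 8 in the arms, gst-44 (27.9), and 0 of 1 in the centre. Among its 7699 strongest regions replicate 1 had none of them and replicate 2 had 1. The whole list of replicate 1 did hold a weak region overlapping the one at gst-44 (10.5). On the other chromosomes the pooled shares were 3.25% for C-type lectins, 8.09% for F-box genes and 9.09% for cytochromes P450. They were 24% for UDP-glucuronosyltransferases and 31.4% for glutathione S-transferases.

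**Figure D4:**
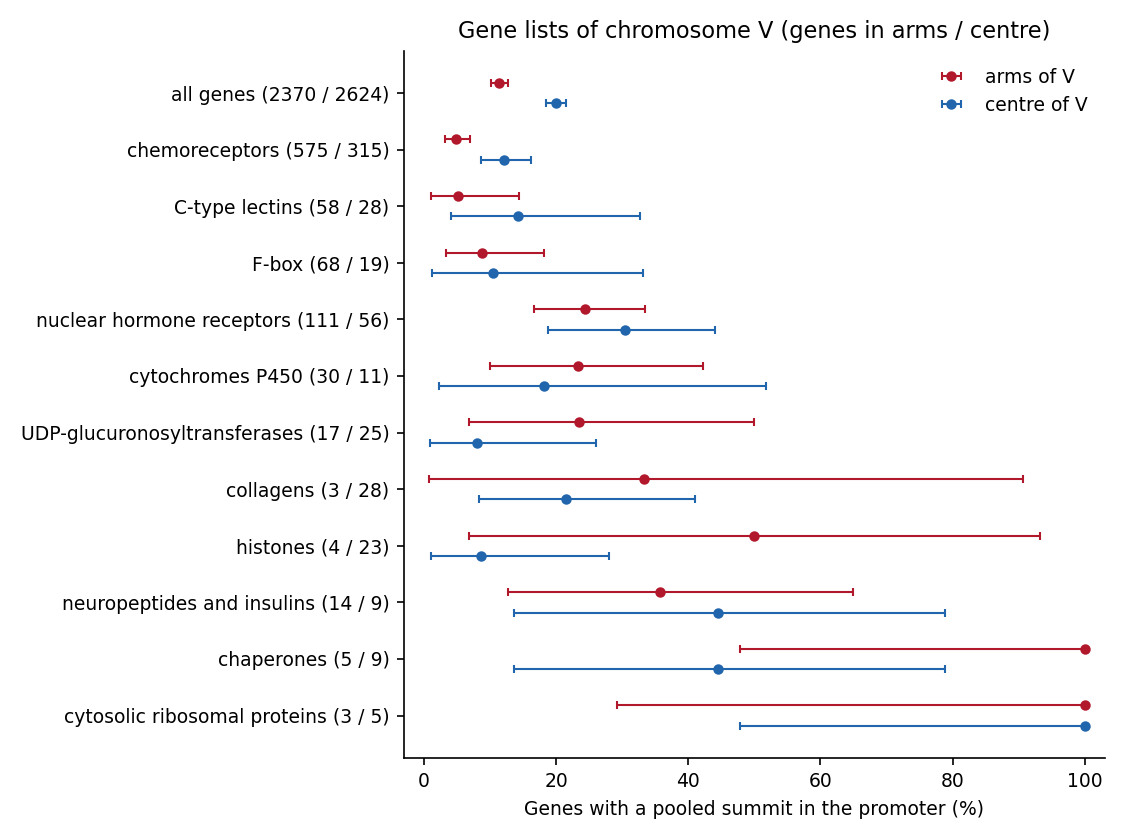
Share of genes with a pooled summit in the promoter in the arms (red, upper of each pair) and the centre (blue, lower) of chromosome V for all genes and 11 gene lists, with the number of genes in arms and centre in brackets and 95% exact intervals for counting error. Chemoreceptors are at 4.87% in the arms and 12.1% in the centre, and the shorter lists have wide intervals that overlap between arms and centre.

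The other lists are short on V, and their shares are loosely fixed. They stand beside pooled summits at 11.4% of all genes of the arms and 19.9% of those of the centre. For IDR summits the shares of all genes were 1.69% and 3.96%. Cytosolic ribosomal protein genes had a pooled summit at 3 of 3 in the arms and 5 of 5 in the centre, and an IDR summit at 1 and 4 of them, with rpl-28 the highest (91.0, 328 bp upstream). Each replicate alone had 2 of the 3 and 4 of the 5. On the other chromosomes 64 of 73 (87.7%) had a pooled summit. The IDR members rpl-39 and rps-30 of the centre had equal signals (58.3), as a shared region would give. Chaperone genes had 5 of 5 in the arms (100%, 47.8 to 100) and 4 of 9 in the centre (44.4%, 13.7 to 78.8). In replicate 2 the arms had 3 of the 5, and in replicate 1 all 5. Of these genes hsp-16.2 and hsp-16.41 share 1 pooled region (38.2), which did not overlap the IDR list. The whole list of replicate 2 held a weak region there (13.0). Of the proteasome genes, all in the centre, 2 of 5 had one, rpt-2 being the higher (70.2). Of the V-ATPase genes, also in the centre, 1 of 2 had one, vha-13 (81.2), a catalytic subunit of the proton pump. Histone genes had 2 of 4 in the arms and 2 of 23 in the centre. Collagens had 1 of 3 and 6 of 28, led by col-159 (41.7) in a region shared with col-160, and replicate 2 had none in the arms. Neuropeptide and insulin genes had 5 of 14 in the arms (35.7%, 12.8 to 64.9) and 4 of 9 in the centre (44.4%, 13.7 to 78.8). The centre count was 2 in replicate 1 and 3 in replicate 2. Both of their IDR members, nlp-31 and nlp-34, share 1 region in the left arm (56.6). Of 3 genes of the BTB and MATH list, all in the centre, bath-36 (46.9) had a summit, which is also in the promoter of cyn-7. Replicate 1 had 2 of the 3. On the other chromosomes 53.3% of chaperone, 60.7% of proteasome and 50% of V-ATPase genes had a pooled summit. The shares there were 11.1% for histones, 12.8% for collagens, 10.3% for neuropeptides and insulins and 5.75% for BTB and MATH.

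The lower share in the arms was not limited to the large families. With chemoreceptors, C-type lectins, F-box genes and nuclear hormone receptors left out, 207 of 1558 genes of the arms (13.3%, 11.6 to 15.1) and 462 of 2206 of the centre (20.9%, 19.3 to 22.7) had a pooled summit. The difference was -7.66 percentage points, against -8.50 with all genes. This comparison was added after the values had been seen. Among those 4 families together 64 of 812 genes of the arms (7.88%) and 61 of 418 of the centre (14.6%) had one.

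Noncoding genes on V had a summit within 250 bp of 3 of 32 tRNA genes in the arms (9.38%) and 12 of 46 in the centre (26.1%), against 28.3% on the other chromosomes. For small nucleolar RNA genes the counts were 3 of 15 in the arms and 15 of 40 in the centre, of which 1 and 6 were IDR summits, and the other chromosomes had 19.2%. No snRNA gene of 19 in the arms and 2 of 21 in the centre had one, against 21.3% on the other chromosomes. For miRNA genes there were none of 12 in the arms and 1 of 16 in the centre, against 7.30% on the other chromosomes. None of the 15 rRNA genes of V, all of them in the arms, had one.

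Motifs were searched on both strands within 50 bp of each summit as spelled here, and a match is a description of the letters, not of a binding site. The receptor half-site letters AGGTCA were in 16 of 475 windows of the arms (3.37%, 1.94 to 5.41) and 22 of 943 of the centre (2.33%, 1.47 to 3.51). Windows of the same 101 bp centred 150 bp upstream of all protein-coding starts held them in 2.84% of cases. GAGAGA was in 72 windows of the arms (15.2%, 12.1 to 18.7) and 112 of the centre (11.9%, 9.88 to 14.1), against 5.53% of the upstream windows of arm genes and 8.77% of those of centre genes. Among regions that overlapped the IDR list it was in 18 of 48 of the arms (37.5%, 24.0 to 52.6) and 25 of 97 of the centre (25.8%, 17.4 to 35.7). On the other chromosomes the set was the 830 regions of the IDR list itself, not pooled regions overlapping it, and 31.7% of them held it. GAGAGA was the one motif of the 5 whose share was above that of the upstream windows in both the arms and the centre, though in the centre the intervals touched (9.88 to 14.1 and 7.71 to 9.91). TGATAA, the letters bound by GATA factors of the intestine, was in 41 windows of the arms (8.63%) and 101 of the centre (10.7%), against 11.8% of all upstream windows. Among regions that overlapped the IDR list it was in 2 of 48 of the arms and 2 of 97 of the centre. CACGTG, the E-box letters bound by many basic helix-loop-helix factors, was in 7 windows of the arms (1.47%) and 27 of the centre (2.86%, 1.90 to 4.14). The upstream windows held it in 2.15% of cases for arm genes and 1.33% (0.93 to 1.85) for centre genes. Its share was thus below theirs in the arms and above theirs in the centre, where the intervals narrowly missed each other. Among regions that overlapped the IDR list it was in 3 of 48 of the arms (6.25%, 1.31 to 17.2) and 2 of 97 of the centre (2.06%, 0.25 to 7.25). Both of these intervals include the share of the upstream windows. TGACTCA, the letters known for AP-1 factors, was in 8 windows of the arms (1.68%) and 12 of the centre (1.27%). The intervals of arms and centre overlapped for each of the 5 motifs. With 100 bp on either side of the summit in place of 50, the difference for AGGTCA was 2.70 percentage points (0.20 to 5.62), an interval that excludes 0, against 1.04 (-0.70 to 3.22) with 50 bp.

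The DNA of the regions differed more in repeats than in base composition. The share of bases soft-masked as repeats or low complexity in RefSeq had a median of 35.4% in the arms and 28.8% in the centre. On the other chromosomes these medians were 35.7% and 29.1%. The median GC content of the 101 bp around the summit was 35.6% in the arms and 34.7% in the centre. No source used here says how the authors treated reads that map to repeats, and the part of repeats in the lower density of regions in the arms was not tested.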

How the data were processed

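ChIP-seq of 2 biological replicates was analysed from 4 ce11 peak lists in narrowPeak format, with the ce10 lists as an alternative. Per the readme files deposited by the authors, replicate lists were made from 1 replicate's alignment each, the pooled list from both, always with a control alignment, and the IDR list by comparing these lists. No source used here gives the aligner, the caller, a version or the IDR threshold. The deposited signal values are a score of the authors' caller, on a scale not stated. The deposited −log10 q-values and the p-value column (unassigned) were not used. Depth is unknown.

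Genes came from Ensembl release 115 (WBcel235, the coordinates of ce11), bases from RefSeq of the same assembly. The alternatives were boundaries that make arms and centre of unequal length, each replicate alone, the IDR list, regions above the median signal, ce10, other promoter, overlap and motif windows, and all annotated starts. Named were the 12 strongest regions of arms and of centre, the highest V member of each of 15 gene lists and nhr-237. srx-125 and members of short IDR lists were added after their values were seen. Members, lists and motifs were chosen with earlier results of these data known. Scripts were tested on simulated data (Python 3.11.15, NumPy 2.4.6, SciPy 1.17.1, statsmodels 0.14.6).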

Additional observations from a re-analysis of the deposited data

How the results depend on the processing

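Of 68 alternative values, 59 stayed within the main interval and 9 did not. With boundaries at about 33% and 67% the arms cover more of the chromosome and held 51.97% of regions, while the ratio of densities stayed at 0.541. Leaving out a replicate moved the share of regions in the arms to 33.98% and 35.9%, and the difference in the share of genes with a promoter region to -7.33 and -8.15 percentage points. That difference was -2.28 with the IDR list only, -5.93 with pooled regions above the median signal and -11.07 with promoters of 2000 bp, so it kept its sign. With the IDR list only, the difference in the share of regions in promoters was -12.4 percentage points (-28.7 to 3.13). The differences for motifs there, arms minus centre, were 4.44 for AGGTCA, 2.34 for TGATAA, 13.7 for GAGAGA and 4.56 for CACGTG, each with an interval that includes 0, from 45 regions in the arms and 95 in the centre. The causes were not tested. No paired analysis was possible because there was 1 group. With 2 replicates and unknown depth, the lists limit what can be seen of weak regions.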
